A study of Arabidopsis thaliana with 24 samples.

Results

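Light in the absence of nitrogen was examined in WT-sib seedlings of Arabidopsis thaliana by setting 3 ATH1 arrays of the -N+L treatment against 3 arrays of the -N-L treatment, 6 of the 24 arrays measured. The 6 arrays were chosen by their labels alone, as all WT-sib arrays of these treatments. WT-sib carries no T-DNA in bZIP1 and was derived from a sibling of the insertion mutant bzip1-1 in the Col-0 background, so it is a single sibling line and not an untouched wild type. Whole seedlings grew for 14 days on 0.5 mM KNO3 and 3 mM sucrose, with 16 h of light at 50 µE and 8 h of dark at 22 °C. At the start of a light period both groups were moved for 2 h to plates that held KCl and no nitrogen source. The -N+L seedlings stayed in the light of the growth chamber, and the -N-L seedlings were covered with aluminium foil. The other treatments, +N+L and +N-L, had 20 mM KNO3 and 20 mM NH4NO3, and the same 4 treatments were given to bzip1-1. The 3 arrays of a group are biological replicates from 3 independent experiments, in which, by the paper's account, both genotypes were given the combined treatments. Whether a replicate number marks the same experiment in every group is not stated.

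Seedlings kept in the dark past the end of the night run short of sugars. Transcripts of protein and amino acid breakdown, of sugar uptake and of a beta subunit of the SnRK1 energy-sensing kinase are known to accumulate. Light acts through phytochromes and cryptochromes, through the clock and through the sugars of photosynthesis, and is known to induce flavonoid synthesis, starch synthesis and nitrate reduction. Nitrate and light both act on nitrate assimilation in this plant, and the study asked how these signals are combined. Set against darkness on the same nitrogen-free plates, the light response could be read without a nitrogen supply.

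Values are MAS 5.0 signal intensities on a linear scale, with a mean of 500 on each array once the lowest and highest 2% are left out. The 6 arrays had medians of 194.8 to 216.0, and 40% of the probe sets of an array lay below 123.0 to 135.5. No detection calls were used, so a signal in that range is given as measured and its fold change is uncertain. A probe set is called dim where its mean log2 signal over the 6 arrays lay below the 40th percentile, which corresponds to a signal of 125. Pearson's r of log2 signal, across probe sets, ran from 0.853 to 0.931 between pairs of the 6 arrays, and both 0.853 and 0.877, the lowest values, involved -N+L replicate 1. That array also stood apart on AT3G56290, a locus with no annotated function here. AT3G56290 read 7861, 2139 and 2231 in WT-sib -N+L, in replicate order, and 1806, 11651 and 6747 in bzip1-1 -N+L. Replicate 1 thus lay near the other genotype's level in both groups, and the labels were used as given. Counts of list members that change without this array are given both ways or through the gene whose call ends, and calls of described genes that end without any 1 of the 6 arrays are named. bZIP1 itself has no named probe set here, so its level was not analysed.

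Of 22746 probe sets, 656 were higher and 732 lower in -N+L seedlings at an adjusted p under 0.05 (limma, Benjamini-Hochberg), 2.88% and 3.22% of all tested and 6.1% together. At an unadjusted p under 0.05 there were 3907. The median log2 change was 1.17 among those that rose and -1.31 among those that fell, beside 0.05 over all probe sets. A log2 change beyond 3 was reached by 37 probe sets that rose and by 59 that fell. All 3 light arrays lay above all 3 dark arrays for 10.4% of the probe sets tested, and below them for 8.79%. Among the probe sets that passed, the arrays were separated in this way for 637 of 656 and 729 of 732. Without -N+L replicate 1 the counts were 718 higher and 717 lower, 3.16% and 3.15%, and 503 and 561 probe sets were called in both fits. Without -N+L replicate 2 they were 350 and 483, and without -N-L replicate 3 they were 371 and 432. With the arrays scaled to a common median the counts were 524 higher and 812 lower, and the median log2 change over all probe sets was -0.03 in place of 0.05.

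**Figure D1:**
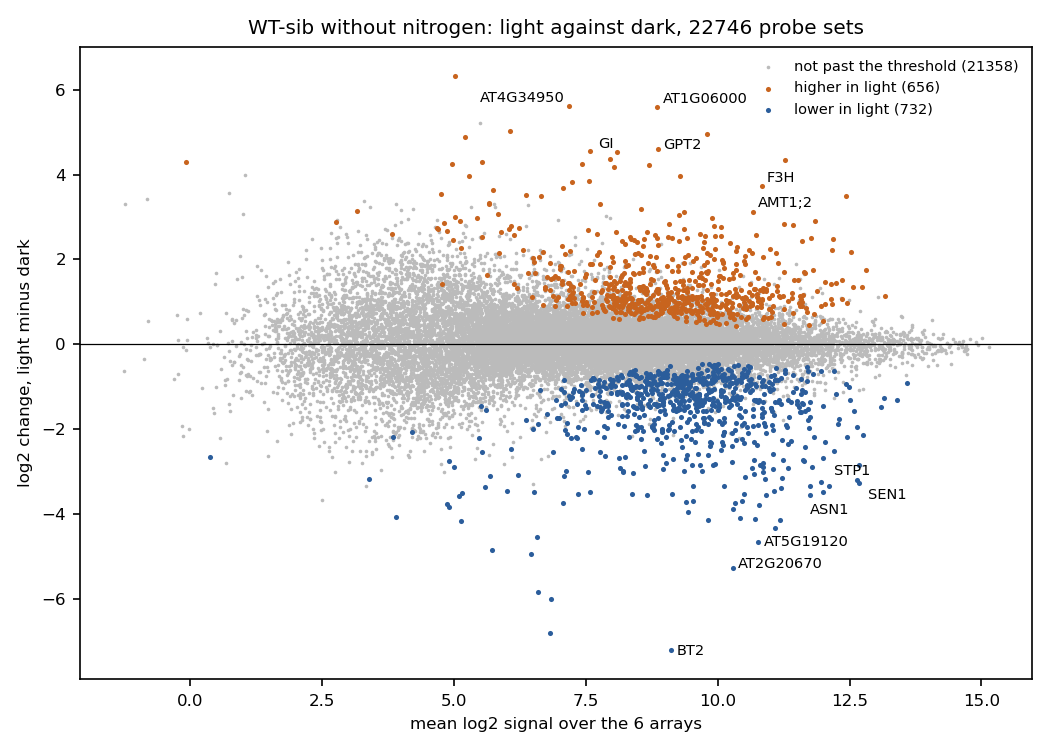
Log2 change in WT-sib without nitrogen, light (-N+L) minus dark (-N-L), against the mean log2 signal over the 6 arrays, 1 point per probe set, with the calls at an adjusted p under 0.05 in colour. Of the 656 higher and 732 lower probe sets 59 and 36 are dim, and BT2 lies lowest at -7.21.

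A single locus could be assigned to 943 of the 1388 probe sets called. The platform annotation names 13436 probe sets, of which 5.46% were called (2.41% higher, 3.04% lower), and the study's own tables of regulated genes name 874 more, of which 12.2% rose and 11.8% fell. Members known only through those tables were selected on these same arrays, so counts that hold them are not independent evidence of a direction. Over all gene lists 132 of 395 loci were measured, that is, had a named probe set, 63 named by the platform and 69 by the study's tables. Of those named by the platform 9 rose and 8 fell, and of those from the tables, 15 rose and 14 fell.

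Transcripts of flavonoid and phenylpropanoid synthesis were higher in light. Of 12 measured members of this list 6 rose and none fell, with a median log2 change of 1.66, beside 2.88% higher and a median of 0.05 over all probe sets. Of the 5 members named by the platform 3 rose, beside 2.41% of all probe sets it names. All 12 had a value above 0. F3H, flavanone 3-hydroxylase, read 6984, 7089.8 and 5904 in -N+L seedlings, against 992, 313 and 410.4 in -N-L seedlings. Its log2 change was 3.72 (SE 0.42, adjusted p = 1.3e-05). TT5, chalcone isomerase, read 2746, 3158 and 2412 in the light arrays, against 634, 556 and 412 in the dark arrays. The arrays of each group lay close together for TT5 and far from the other group, and the log2 change of 2.39 (SE 0.22, adjusted p = 1.9e-06) had 1 of the 6 smallest p-values among higher named genes.

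UGT78D1, a flavonol rhamnosyltransferase, read 1129.8, 1615 and 1644 with light and 163, 234 and 213 without. It changed by 2.84 (SE 0.27, adjusted p = 2.2e-06), and UGT78D2, a flavonoid glucosyltransferase, changed by 1.63 (SE 0.35, adjusted p = 0.0069). Their neighbour in the family, UGT78D3, was dim on all 6 arrays, with signals of 9.35, 29.4 and 14.9 in light and 6.61, 22.4 and 6.33 in the dark, and did not pass (0.71, SE 0.88, adjusted p = 0.796). AT1G06000, listed with this pathway, read 3348, 4017 and 2473 in -N+L, against 201, 131 and 11.2 in -N-L. The dark arrays of AT1G06000 were spread far more widely than its light arrays, and its change of 5.59 (SE 1.08, adjusted p = 0.0024) has a wide error. At the entry of the pathway C4H, cinnamate 4-hydroxylase, rose by 0.94 (SE 0.22, adjusted p = 0.013). PAL1, phenylalanine ammonia-lyase, had 1.89 (SE 0.59, adjusted p = 0.065) and 4CL1, a coumarate ligase, 1.22 (SE 0.44, adjusted p = 0.12). Neither passed, although each read higher on every light array than on every dark array. DFR, which leads to anthocyanins, had 1.08 (SE 0.58, adjusted p = 0.37) with arrays that overlapped, and the dim regulators MYB12 and MYB11 did not pass. The call of C4H ended without -N-L replicate 1 or 3 (adjusted p up to 0.073).

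Outside the list, the chalcone isomerase-like gene CHIL read 1500.3, 1231 and 1160.2 in light and 392, 231 and 120.2 in darkness, a change of 2.54 (SE 0.71, adjusted p = 0.034). CHIL did not pass without -N+L replicate 1, 2 or 3 or -N-L replicate 2 or 3 (adjusted p up to 0.18). DHS1, an enzyme that starts the shikimate pathway, read 1532, 2667 and 2229.9 in the light group, against 459.6, 837 and 553 in the dark group, with a change of 1.81 (SE 0.26, adjusted p = 1.5e-04). The arogenate dehydratases ADT6 and ADT1, which lead to phenylalanine, changed by 1.49 (SE 0.30, adjusted p = 0.0033) and 1.37 (SE 0.29, adjusted p = 0.0057). MYBL2, a repressor of flavonoid synthesis, went the other way, at 1134, 1961 and 2281 in -N+L and 6098, 6007 and 8475 in -N-L (-1.98, SE 0.37, adjusted p = 0.0019). CHIL, DHS1, ADT6, ADT1 and MYBL2 were chosen after their values were seen. Of 48 UDP-glycosyltransferases grouped by name, 7 rose and 3 fell (median 0.23), and 6 rose and 3 fell without -N+L replicate 1, beside 2.88% higher and 3.22% lower over all probe sets. All but 1 of the 48 are named by the platform. Among them UGT84A3, which glucosylates hydroxycinnamates, rose to 943, 986 and 682, against 146, 201 and 170.0 in the dark (2.33, SE 0.42, adjusted p = 0.0013).

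**Figure D2:**
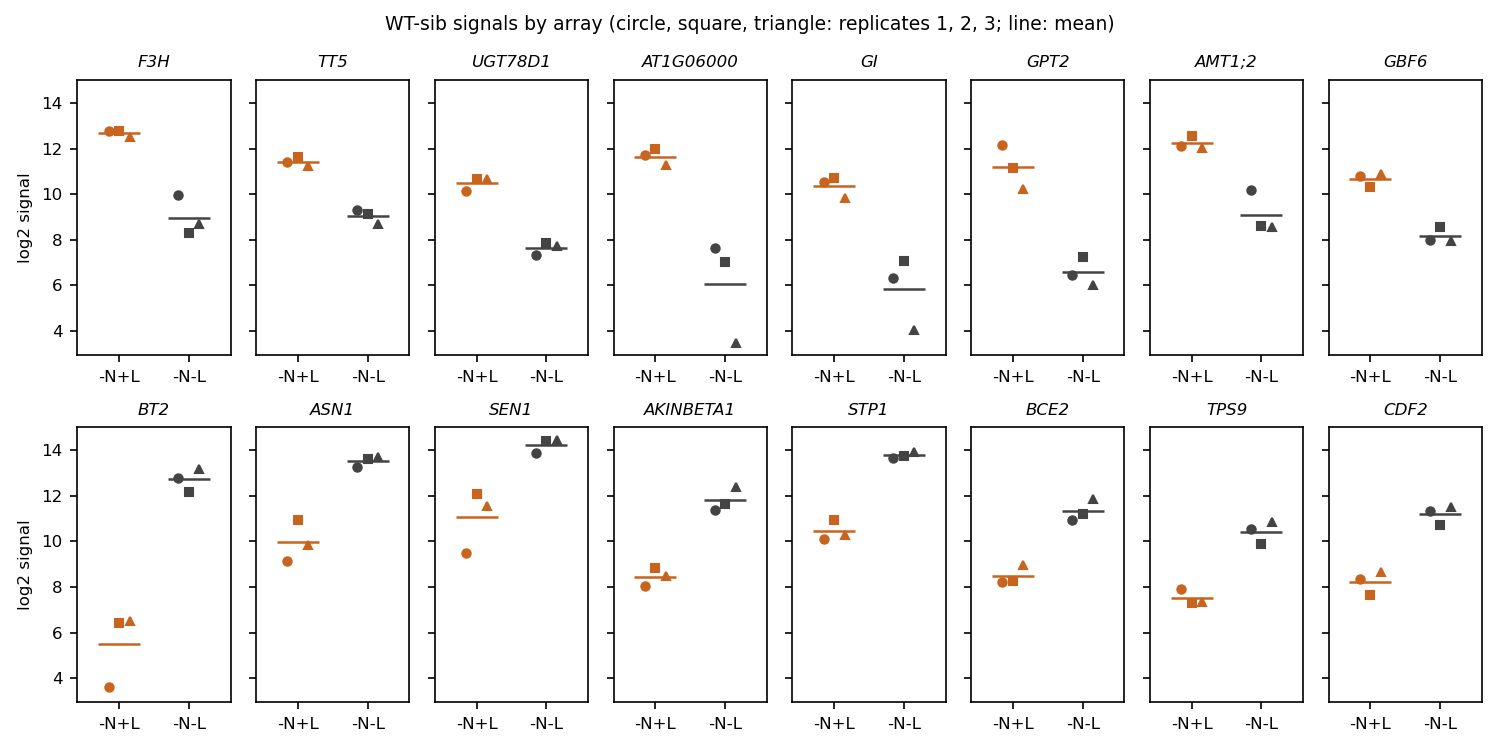
Log2 signal on each WT-sib array of 16 genes, with -N+L at the left and -N-L at the right of each panel, symbols for the replicates and a line at the mean. The upper row holds genes that rose in light and the lower row genes that fell. All were picked among the calls, and in every panel the groups do not overlap, as for 637 of 656 higher and 729 of 732 lower calls.

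Starch and sugar transcripts moved in both directions. GPT2, which carries glucose 6-phosphate into plastids, read 4611, 2236 and 1187 in -N+L seedlings, against 88.2, 152 and 63.9 in -N-L seedlings, a change of 4.60 (SE 0.81, adjusted p = 0.0011). GBSS1, the granule-bound starch synthase, read 9028, 14825 and 7366 with light and 3012, 2004 and 1608 without. APL3, a large subunit of ADP-glucose pyrophosphorylase, read 1124, 597 and 464 in light and 82.5, 256 and 93.7 in darkness. The light arrays lay above the dark arrays for all of these. Dark replicates 1 and 3 of GPT2 and APL3 lay below the 40th percentile of their arrays, so the size of their changes is uncertain. GBSS1 rose by 2.22 (SE 0.53, adjusted p = 0.013) and APL3 by 2.43 (SE 0.57, adjusted p = 0.012). Calls ended when 1 array was left out for APL3 (without -N+L replicate 1 or -N-L replicate 1 or 3, adjusted p up to 0.068) and GBSS1 (without -N+L replicate 2 or -N-L replicate 3, adjusted p up to 0.081). Of 8 measured genes of starch metabolism 3 rose and none fell (median 0.89), beside 2.88% higher over all probe sets. Among the 4 named by the platform 1 rose (median 0.41), and the other 4 are known only from the study's tables, where 12.2% of all probe sets rose. The remaining call was DPE2, the cytosolic glucanotransferase of starch breakdown, at 1.06 (SE 0.20, adjusted p = 0.00202). Without -N+L replicate 1 the count was 4, with the starch synthase SS1 (adjusted p = 0.025) and the branching enzyme SBE2.2 (adjusted p = 0.0098) in and APL3 out. The breakdown enzymes PWD and DPE1 did not pass, at 0.09 and -0.66.

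STP1, a hexose-proton symporter of the plasma membrane, read 1112, 1937 and 1242 in light, against 13042, 13602 and 15297 in the dark. The dark arrays differed from each other by little beside the gap to the light arrays, and the change of STP1 was -3.33 (SE 0.29, adjusted p = 1.1e-06). Its relative STP14 fell by 3.02 on the log2 scale to 114, 116 and 86.8 in light, against 472, 885 and 1449 in the dark. The light signals of STP14 lay below the 40th percentile of their arrays. GPT2 and STP1 were the calls, 1 higher and 1 lower, among 7 measured genes of the list of sucrose metabolism and sugar transport (median -0.47), beside 2.88% higher and 3.22% lower over all probe sets. Of 25 sugar and inositol transporters grouped by name 2 rose and 5 fell, and 1 rose and 5 fell without -N+L replicate 1. Among the 20 of them named by the platform 2 rose and 1 fell, beside 2.41% and 3.04% of all it names, so 4 of the 5 that fell are known only from the study's tables. SWEET2, which stores sugar in the vacuole, read 1278, 843 and 897 in -N+L, against 5682, 2221 and 4082 in -N-L (-1.91, SE 0.30, adjusted p = 4.0e-04). SIP2, an enzyme of raffinose breakdown, read 1220.1, 479.7 and 313 in light and 7255, 5671 and 7208 in darkness, with a change of -3.55 (SE 0.46, adjusted p = 4.9e-05). UGE1, a UDP-glucose epimerase, and MIOX2, an inositol oxygenase, fell as well, with log2 changes of -2.31 and -2.26. UGE1 and MIOX2 were chosen after their values were seen.

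The transcripts that fell furthest include those known to accumulate in darkness and starvation. Of 13 measured members of that list 10 fell and none rose, and 11 fell without -N+L replicate 1, with a median of -2.61, beside 3.22% lower over all probe sets. Of the 5 members named by the platform 3 fell, beside 3.04% of all probe sets it names. ASN1, an asparagine synthetase, read 566, 1974 and 918 in -N+L, against 9787, 12385 and 13509 in -N-L. SEN1, a marker of darkness and senescence, read 726, 4344 and 3039.8 in light and 15122, 21490.1 and 22499.9 in the dark. For both genes replicate 1 was the lowest of the light arrays, and the groups were far apart without it too. ASN1 changed by -3.55 (SE 0.51, adjusted p = 1.6e-04), and by -3.13 without that array. SEN1 changed by -3.19 (SE 0.60, adjusted p = 0.0021), and by -2.42 without it.

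Members of the same list act in the breakdown of branched-chain amino acids. BCE2, the acyltransferase subunit of the branched-chain keto acid dehydrogenase, read 300.3, 304 and 504 in light, against 1971, 2354 and 3695 in darkness. DIN4, a subunit of the same complex, read 262, 468 and 407 with light and 1383, 2295 and 3559 without. MCCA, which acts on leucine's breakdown product, read 300.0, 755 and 829.8 in -N+L, against 2497, 5172 and 8156 in -N-L. Dark replicate 3 was the highest and dark replicate 1 the lowest for all of these. BCE2 changed by -2.85 (SE 0.37, adjusted p = 5.1e-05), DIN4 by -2.61 (SE 0.43, adjusted p = 5.9e-04) and MCCA by -3.04 (SE 0.57, adjusted p = 0.00203). IVD, isovaleryl-CoA dehydrogenase, fell by 2.08 on the log2 scale (adjusted p = 0.0021), while ETFQO, which takes its electrons, had -1.18 (SE 0.42, adjusted p = 0.12) and D2HGDH -0.21 (SE 0.20, adjusted p = 0.71). Of the genes for other amino acids, ERD5, proline dehydrogenase, fell by 2.29 (adjusted p = 0.0022). GDH2, a glutamate dehydrogenase, had -1.59 (SE 0.48, adjusted p = 0.056) with all 3 arrays and passed without -N+L replicate 1, at -2.03 with an adjusted p of 0.019. SDP1, a lipase of oil bodies chosen after its values were seen, fell to 365, 263 and 425, against 1141, 1638 and 2655 in the dark.

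AKINBETA1, a beta subunit of SnRK1, read 266, 455 and 359 in light, against 2640.4, 3195 and 5375 in darkness. Its change was -3.34 (SE 0.35, adjusted p = 5.7e-06). The other 2 measured subunits of the kinase, AT4G16360 and AT2G28060, had 0.34 and 0.08 and did not pass. TPS9, a trehalose phosphate synthase homologue, read 239, 155 and 161 with light and 1508, 933 and 1864 without. All 3 trehalose phosphate synthases named here fell, with log2 changes of -2.92 for TPS9, -1.50 for TPS10 and -1.01 for ATTPS6. They are known only from the study's tables, where 11.8% of all probe sets fell, beside 3.22% over all probe sets tested. Those tables hold genes selected on these same arrays, so the count is not independent evidence of a fall of the family. Without -N+L replicate 1 the count was 2. Of 14 autophagy genes grouped by name 2 fell and none rose, and 1 fell without -N+L replicate 1, beside 3.22% lower over all probe sets. APG5 read 464, 426 and 476 in -N+L and 1034, 899 and 1111 in -N-L (-1.15, SE 0.17, adjusted p = 2.3e-04), and ATG8E, which coats the autophagosome membrane, changed by -2.02 (SE 0.53, adjusted p = 0.025). Calls ended when 1 array was left out for ATG8E (without -N+L replicate 1 or 2 or -N-L replicate 2 or 3, adjusted p up to 0.13) and ATTPS6 (without -N+L replicate 1, 2 or 3 or -N-L replicate 1 or 3, adjusted p up to 0.14). Of 28 RING and ubiquitin-conjugating proteins grouped by name 7 fell and none rose, and 8 fell and 1 rose without -N+L replicate 1. Among the 16 of them named by the platform 2 fell, beside 3.04% of all it names, and the other 5 that fell are known only from the study's tables, where 11.8% of all probe sets fell. ATL8, a RING protein, had 61.0, 95.0 and 189 in light and 444, 705 and 1497 in the dark, and UBC17, an E2 enzyme, 352, 392 and 310.0 in light and 1036, 1080.3 and 1329.6 in the dark. NAP, a NAC transcription factor of leaf senescence, fell by 2.31 on the log2 scale (adjusted p = 5.5e-04). WRKY22, a transcription factor of dark-induced senescence, read 265, 462 and 609 in light, against 1317, 1269 and 1485 in the dark (-1.69, SE 0.31, adjusted p = 0.0017). The name groups, NAP and WRKY22 were chosen after values were seen.

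Most measured regulators of the nitrate response were lower in light on these nitrogen-free plates. Of 16 listed loci 8 were measured, and 5 fell and none rose (median -1.40), beside 3.22% lower over all probe sets. Without -N+L replicate 1 the count was 4. Both members named by the platform fell, beside 3.04% of all it names. The others are known only from the study's tables, where 11.8% of all probe sets fell. BT2, a BTB-TAZ protein, read 12.2, 85.4 and 91.9 in -N+L seedlings, against 7106, 4644 and 9298 in -N-L seedlings. Its light signals lay below the 40th percentile of their arrays, so the size of its change, -7.21 (SE 0.80, adjusted p = 1.0e-05), is uncertain. Without -N+L replicate 1, the dimmest of them, it was -6.25. BT5 of the same family read 528, 402 and 1194 in light and 7026, 3321 and 7936 in darkness (-3.17, SE 0.49, adjusted p = 3.6e-04). BT3 of that family had 0.18 (SE 0.19, adjusted p = 0.75), with groups that overlapped.

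LBD37, a LOB domain repressor of nitrate-responsive genes, read 509, 383 and 596 with light and 1212, 863 and 1341 without, and its relative LBD39 read 92.1, 205 and 283 with light and 988, 289 and 624 without. They changed by -1.20 (SE 0.28, adjusted p = 0.011) and -1.69 (SE 0.41, adjusted p = 0.016). Calls ended when 1 array was left out for LBD37 (without -N+L replicate 2 or -N-L replicate 3, adjusted p up to 0.075) and LBD39 (without -N+L replicate 1 or -N-L replicate 1 or 3, adjusted p up to 0.102). The third relative, LBD38, had -0.30 (SE 0.37, adjusted p = 0.804). AT1G25550 and AT1G68670, listed with these regulators, changed by -1.95 (SE 0.21, adjusted p = 7.6e-06) and -1.60 (SE 0.21, adjusted p = 4.9e-05), and for each the highest light array lay well under the lowest dark array. The kinase genes CIPK23 and CIPK3 had -0.20 and -0.13.

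Genes of nitrogen uptake and assimilation had values above 0 in 11 of 12 cases, but 2 passed, 1 without -N+L replicate 1, beside 2.88% higher over all probe sets, and the median was 0.72. With the arrays scaled to a common median 9 of the 12 were above 0. All 12 are known only from the study's tables, where 12.2% of all probe sets rose, so 2 calls in 12 are no clear excess. AMT1;2, an ammonium transporter, read 4422, 6024 and 4229 in light, against 1165, 386 and 373 in the dark, and rose by 3.13 (SE 0.65, adjusted p = 0.0046). NIA1, nitrate reductase, read 2047, 2257 and 1155 in -N+L and 493, 569 and 331 in -N-L, and rose by 1.95 (SE 0.53, adjusted p = 0.0296). Leaving out -N+L replicate 1 or 2 or -N-L replicate 1 or 3 ended the call of NIA1 (adjusted p up to 0.14). The second nitrate reductase, NIA2, read 9622, 10699 and 9440.1 in light and 9897, 7186 and 12245 in darkness. Those groups overlapped (0.05, SE 0.20, adjusted p = 0.95). NIR1, nitrite reductase, had 1.09 (SE 0.69, adjusted p = 0.48), and NRT1.1, the nitrate transceptor, 1.33 (SE 0.62, adjusted p = 0.28). ASPGB1, an asparaginase chosen after its values were seen, read 2136, 1493 and 958 in light, against 326, 383 and 303 in the dark, the reverse of the synthetase ASN1, and rose by 2.11 (SE 0.32, adjusted p = 2.8e-04).

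Of 18 listed clock genes 3 were measured, and 1 rose and 1 fell, beside 2.88% higher and 3.22% lower over all probe sets. Only GI is named by the platform. ELF3 and PRR7 are known only from the study's tables, where 12.2% of all probe sets rose and 11.8% fell. GI, a clock protein that also acts in flowering, read 1504, 1658 and 913 in -N+L, against 81.1, 135 and 16.7 in -N-L. It rose by 4.53 (SE 0.54, adjusted p = 2.7e-05). Dark replicates 1 and 3 of GI lay below the 40th percentile of their arrays, so the size of this change is uncertain. ELF3, of the evening complex, read 274, 249.6 and 201 in light and 408, 433 and 627 in darkness and changed by -1.0 (adjusted p = 0.013), and PRR7 had 1.07 (SE 0.46, adjusted p = 0.22). The call of ELF3 ended without -N+L replicate 3 or -N-L replicate 3 (adjusted p up to 0.095). AT5G64170, which RefSeq also lists as LNK1, night light-inducible and clock-regulated 1, read 2750.0, 2941 and 2694 with light and 544, 728 and 573 without. The 3 arrays of each group lay within a narrow range, and its change of 2.20 (SE 0.15, adjusted p = 9.1e-08) had the smallest p among named genes that rose. CDF2, a DOF repressor of flowering, fell to 329, 201 and 400.5 in light, against 2619, 1708 and 2948 in the dark (-2.99, SE 0.38, adjusted p = 4.6e-05).

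Of 6 photoreceptor and light-signalling genes 1 rose and 2 fell, beside 2.88% and 3.22% of all probe sets, and 1 rose and none fell without -N+L replicate 1. Neither of the 2 members named by the platform passed. PHYA, which encodes phytochrome A, read 677, 1421 and 1642 in light, against 1899, 3158 and 4488 in the dark. CRY1, the gene of a cryptochrome, read 339, 523 and 711 in light, against 1106, 1229.6 and 1663 in the dark. The groups did not overlap for either. PHYA changed by -1.36 (SE 0.40, adjusted p = 0.045) and CRY1 by -1.39 (SE 0.35, adjusted p = 0.0197). Calls ended when 1 array was left out for PHYA (without -N+L replicate 1 or 2 or -N-L replicate 2 or 3, adjusted p up to 0.23) and CRY1 (without -N+L replicate 1 or 2 or -N-L replicate 3, adjusted p up to 0.11). LZF1, a B-box zinc finger protein of greening, rose by 1.36 (SE 0.21, adjusted p = 3.9e-04). SIGE, the light-induced sigma factor of the plastid polymerase, read 4959, 4498 and 4823 in -N+L and 1951, 1075 and 2175 in -N-L. It rose by 1.52 (SE 0.27, adjusted p = 0.0014), while GPRI1, a GLK factor of chloroplast development, had 0.96 (SE 0.39, adjusted p = 0.17) and passed without -N+L replicate 1 (1.38, adjusted p = 0.036). Among group C and S1 bZIPs, GBF6, the gene of bZIP11, read 1764, 1287 and 1878 in light, against 257, 373 and 244 in darkness. It rose by 2.50 (SE 0.27, adjusted p = 9.8e-06), and the other measured members of these groups, BZIP9, BZIP53 and bZIP44, had -0.57, -0.91 and 0.66 and did not pass.

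Of 23 chaperones and their partners grouped by name after values were seen, 12 rose and 2 fell (median 1.08), beside 2.88% higher and 3.22% lower over all probe sets. Without -N+L replicate 1 the counts were 13 and 2, and with a common median 10 rose and 2 fell. Among the 12 members named by the platform 6 rose and 1 fell, beside 2.41% and 3.04% of all it names. Fes1A, a nucleotide exchange factor of HSP70, read 1546, 1227 and 1354 in light, against 319, 320.0 and 342 in the dark, and changed by 2.07 (SE 0.25, adjusted p = 3.3e-05). ROF1, a peptidyl-prolyl isomerase that binds HSP90, read 1353, 1294 and 1201 with light and 473, 519 and 379 without, and its relative AT5G48570, listed by RefSeq as ROF2, 352, 582 and 544 with light and 40.5, 36.7 and 34.6 without. The replicates of these genes were close together, and the dark signals of AT5G48570 lay below the 40th percentile of their arrays. ROF1 rose by 1.50 (SE 0.18, adjusted p = 3.3e-05) and AT5G48570 by 3.69 (SE 0.71, adjusted p = 0.0025). The HSP70-HSP90 organizing proteins Hop2 and Hop3 rose by 1.23 and 2.31, and the DnaJ proteins J2 and J3 by 1.10 and 0.96 on the log2 scale. CLPB3, a disaggregase of plastids, rose by 1.34 (SE 0.17, adjusted p = 3.8e-05). J11, a small DnaJ protein of plastids, went the other way, at 3437, 2751 and 3617 in light and 10874, 12449 and 14196 in darkness (-1.94, SE 0.23, adjusted p = 3.1e-05), as did Fes1C (-1.56, SE 0.25, adjusted p = 4.1e-04). Of 8 measured genes of the heat shock list 3 rose, HSP17.6A by 2.66, AT5G51440 by 2.18 and AT2G29500 by 1.36, and 2 rose without -N+L replicate 1 or with a common median. HSP17.6A and AT2G29500 are dim. Calls ended when 1 array was left out for HSP17.6A (without -N+L replicate 3 or -N-L replicate 1, adjusted p up to 0.11), AT5G51440 (without -N+L replicate 1 or 3 or -N-L replicate 1, adjusted p up to 0.11) and AT2G29500 (without -N+L replicate 1 or 2 or -N-L replicate 2 or 3, adjusted p up to 0.16).

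Few of the measured transcripts of the photosynthetic machinery itself passed the test after these 2 h. Named probe sets covered 4 of 20 listed light-harvesting loci, 3 of 21 Calvin cycle loci and 9 of 25 loci of chlorophyll synthesis. Most loci of these lists were therefore not read. None of 4 light-harvesting complex genes, 3 Calvin cycle genes or 69 plastid-encoded genes was called by limma or by analysis of variance on log2 signal, and 1 of them, LHCB2.3 at -1.06, had an unadjusted p under 0.05. With the replicate number as a block, LHCB2.3 was called and none of the others. The plastid-encoded values ran from -0.38 to 0.43, with a median of -0.10. Of 9 genes of chlorophyll synthesis 1 passed, PORB, a protochlorophyllide oxidoreductase, at 284, 878 and 1024 in light and 1584, 1356 and 1944 in darkness (-1.34, SE 0.34, adjusted p = 0.0203). Its light replicate 1 was far below the other 2, and without that array the change was -0.76. The call of PORB ended without -N+L replicate 1 or -N-L replicate 1 or 3 (adjusted p up to 0.101). The same array was the lowest of its group for LHCB4.1, at 8455, 21762 and 15557 in light and 16795, 14263 and 16183 in the dark, for LHCB4.2, at 3920.0, 16136 and 13119 in light and 12449.9, 16152 and 18828 in the dark, and for CHLM, which methylates the chlorophyll precursor, at 1528, 4195 and 4450.4 in light and 5669.8, 4505 and 7459 in the dark. It was the highest for the defence factor WRKY33, at 3165, 1123 and 1013 in light and 1349.8, 2626 and 2002 in the dark, and none of the 4 touch and defence genes passed or had an unadjusted p under 0.05. Whether the sample of this array differed in another way was not tested.

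RCA, Rubisco activase, which marks leaf tissue, read 20470.3, 31646 and 23877 in light and 25873, 22332 and 23433 in darkness. PYK10, a root beta-glucosidase, read 14450.4, 10289 and 8209 in light and 13799.7, 8677 and 6368 in darkness, so genes of leaf and root were both bright in these whole seedlings. The log2 changes were 0.06 for RCA, 0.23 for PYK10 and 0.43 for EXPA7, a root hair expansin, and the groups overlapped for each. In whole seedlings fewer cells of a type and less RNA per cell cannot be told apart. Of 17 genes taken by their descriptions as cytosolic ribosomal proteins all had values above 0. Their median was 0.35, beside 0.05 over all probe sets. Genes without such a description were not counted. AT3G58660 alone passed, at 0.55 (SE 0.15, adjusted p = 0.031), 1 of 17 beside 2.88% higher over all probe sets. With a common median 16 of the 17 were above 0 and none passed. AT3G58660 did not pass without -N+L replicate 2 or 3 or -N-L replicate 2 or 3 (adjusted p up to 0.15).

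**Figure D3:**
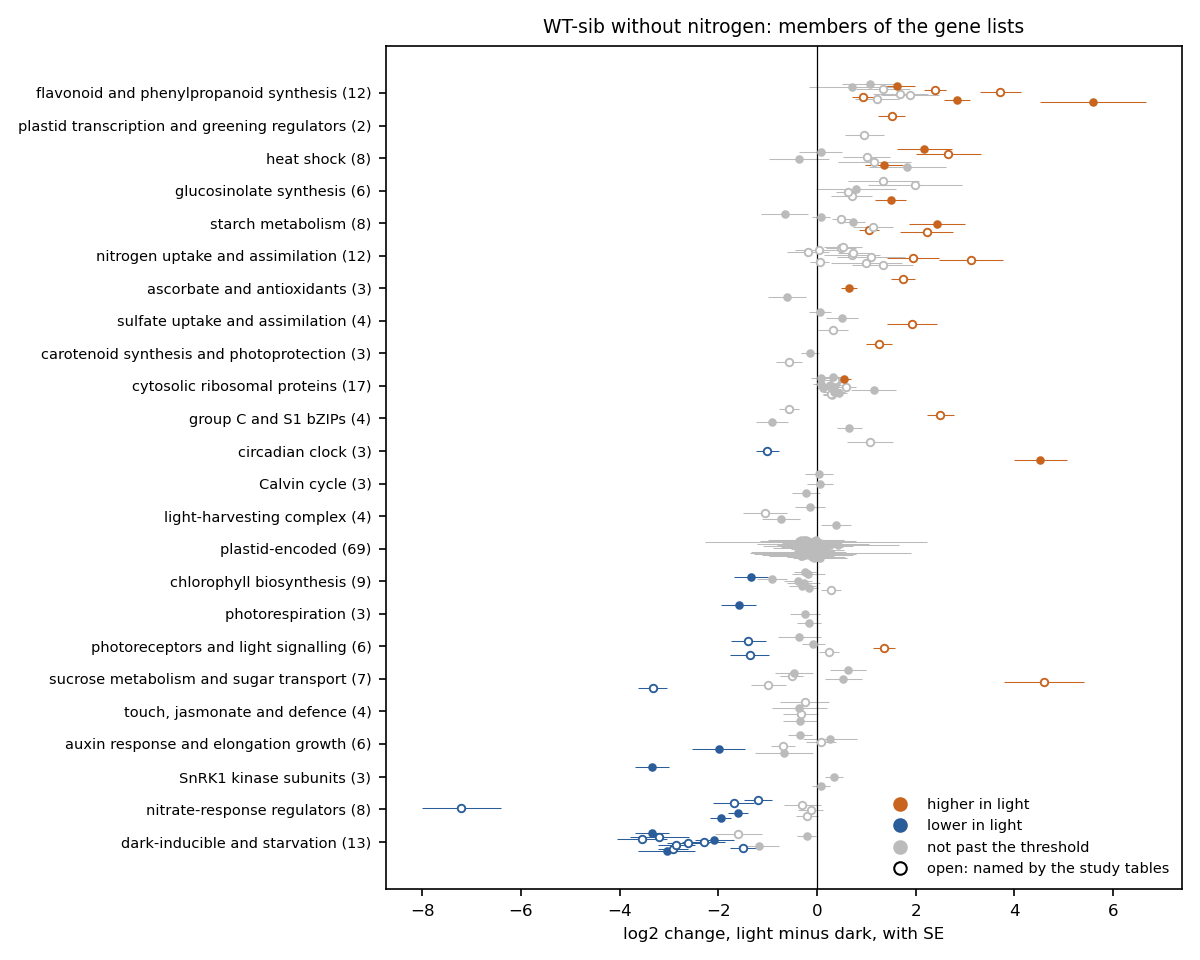
Log2 change with SE, light (-N+L) minus dark (-N-L), of each measured member of the gene lists in WT-sib without nitrogen, with the number of members in brackets and open symbols for genes named by the study's tables. Flavonoid members lie at or above 0.71, and dark-inducible members at or below -0.21.

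Smaller lists gave 1 or 2 calls each, beside 2.88% higher and 3.22% lower over all probe sets. The lists of ascorbate, carotenoid, sulfate and photorespiration genes had 3, 3, 4 and 3 measured members. VTC2, BETA-OHASE 2 and APR2 are known only from the study's tables, where 12.2% of all probe sets rose. Of the members named by the platform 1 of 2 ascorbate genes rose, and no carotenoid or sulfate gene did. VTC2, which commits sugar to ascorbate, read 9381, 17567 and 13870.3 in light, against 4542, 3011 and 4438 in darkness, and rose by 1.75 (SE 0.24, adjusted p = 1.2e-04), with the stromal ascorbate peroxidase SAPX at 0.64 (SE 0.16, adjusted p = 0.016). BETA-OHASE 2, a carotene hydroxylase, rose by 1.26 (SE 0.26, adjusted p = 0.0049). APR2, the reductase of sulfate assimilation, rose by 1.93 (SE 0.51, adjusted p = 0.025). UGT74B1, of glucosinolate synthesis, rose by 1.49 (SE 0.31, adjusted p = 0.0053), and the other 5 measured genes of that pathway had values of 0.62 to 1.99 and did not pass. EXPA8, an expansin, fell by 1.99 on the log2 scale (adjusted p = 0.0298), the only call among 6 genes of auxin response and growth. AT1G80380, listed with photorespiration, fell by 1.58 (adjusted p = 0.0082). Calls ended when 1 array was left out for SAPX (without -N+L replicate 3 or -N-L replicate 3, adjusted p up to 0.11), APR2 (without -N+L replicate 1 or 2 or -N-L replicate 2 or 3, adjusted p up to 0.14), EXPA8 (without -N+L replicate 1 or 2 or -N-L replicate 1, 2 or 3, adjusted p up to 0.21) and AT1G80380 (without -N-L replicate 3, adjusted p up to 0.071).

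Several of the steepest changes belong to loci with no annotated role here. Among the 12 highest named genes, AT4G34950, which the study's tables call a nodulin family protein, read 597, 1631 and 1102 in -N+L, against 38.2, 18.7 and 12.7 in -N-L, a change of 5.62 (SE 0.95, adjusted p = 7.9e-04). Its dark signals lay below the 40th percentile of their arrays. TBL26, of the trichome birefringence-like family, read 881, 3413 and 1964 in light and 109, 112 and 72.6 in darkness (4.24, SE 0.50, adjusted p = 2.0e-05), and AT3G44450 read 2059.5, 3126 and 2319 with light and 256, 147 and 106 without (3.96, SE 0.41, adjusted p = 5.7e-06). AT2G27420, AT5G12110 and AT3G14200 rose by 3.85, 3.84 and 3.32. Their dark signals, and those of TBL26, lay below the 40th percentile of their arrays, so the size of these changes is uncertain. The call of AT3G14200 ended without -N+L replicate 2 or -N-L replicate 1 (adjusted p up to 0.055). At the lower end AT2G20670 read 156, 161 and 331 in light, against 9949.7, 5297 and 8779.8 in the dark (-5.26, SE 0.52, adjusted p = 3.6e-06). AT5G19120 read 295, 291 and 495 in light, against 9743, 6067 and 11283 in the dark. Its change of -4.64 (SE 0.34, adjusted p = 9.1e-08) had the smallest p among named genes that fell. SIS, a salt-induced serine-rich protein, fell to 295, 122 and 245 in light, against 2375, 2039 and 3809.7 in darkness (-3.68, SE 0.32, adjusted p = 1.1e-06). AT1G54740, AT3G15630, AT1G56220, AT1G49500, AT5G56100 and AT4G16000 fell, with log2 changes of -4.14, -3.87, -3.78, -3.68, -3.52 and -3.52, and AT4G27450, which had 1 of the 6 smallest p-values, of -3.37. The light signals of AT4G16000 lay below the 40th percentile of their arrays. AT1G56220 is called a dormancy and auxin associated family protein in the study's tables. None of these overlapped between light and dark, which adds no support, as they were picked as the steepest or smallest-p calls. Of all calls 637 of 656 higher and 729 of 732 lower ones did not overlap either.

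The light response without nitrogen was set beside that of WT-sib with nitrogen, which rests on 6 other arrays. With nitrogen 720 probe sets rose and 735 fell, 3.17% and 3.23% of those tested and 6.4% together. Of the 656 that rose without nitrogen 422 also rose with it, 64.3% of the list here and 58.6% of the list with nitrogen. Of the 732 that fell 487 also fell, 66.5% and 66.3% of the lists. These probe sets were selected on the response without nitrogen. The fitted change had the same sign in 98.6% of those that rose and 98.9% of those that fell, where 48.8% and 51.2% of all probe sets had that sign with nitrogen. A gene past the threshold in 1 nitrogen state alone is not shown to differ, and the difference of the responses was tested by itself. None of 22746 probe sets passed that test (limma, smallest adjusted p = 1.00), and 642 had an unadjusted p under 0.05, 2.82% of all. With the replicate number as a block 1 passed, SERAT2;1, at 1.78 (SE 0.22, adjusted p = 0.0022), and without both -N+L arrays of number 1, 1 other passed, AT1G05575, at 3.10 (SE 0.45, adjusted p = 0.037). The median SE of the difference was 0.37 on the log2 scale, against 0.26 for the response without nitrogen. For SERAT2;1 the SE was 0.42 without the block and 0.22 with it. Without any difference, a share near 0.05 of the probe sets would be expected under the unadjusted threshold, against 2.82% here. The test may thus be conservative, and the lack of calls does not show equal responses. The cause of the low share was not tested.

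The named genes with the smallest p of this difference, coded as the response with nitrogen minus that without, were UGT73B1, SERAT2;1, LBD37, AT3G19030 and TET5, and all had an adjusted p of 1.00 in the fit without the block. UGT73B1, a glycosyltransferase, read 460.2, 335 and 365 in -N+L, against 1157, 1063 and 1139 in -N-L, and fell by 1.55 on the log2 scale. With nitrogen it read 1145, 1273 and 1568 in light and 1159, 1846 and 1025 in darkness, a change of 0.02. The groups were apart without nitrogen and overlapped with it, and the difference was 1.57 (SE 0.33). LBD37 had a change of -1.20 here and 0.36 with nitrogen, a difference of 1.56 (SE 0.39). AT3G19030 had -1.90 here and -0.44 with nitrogen. SERAT2;1, a serine acetyltransferase of cysteine synthesis, had 0.33 here and 2.11 with nitrogen, and TET5 0.22 here and -1.04 with nitrogen. BT2, whose difference was looked at after its values were seen, read 1388, 1034 and 3312 in +N+L and 11888, 15103 and 12096 in +N-L, with all light signals above the 40th percentile. Its change was -7.21 without nitrogen and -2.95 with it, a difference of 4.26 (SE 1.13) that did not pass (adjusted p = 1.00).

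Other transcripts were compared in the same way after their values were seen, and none of their differences passed. ASPGB1, the asparaginase, read 758, 973 and 432 in +N+L and 447, 625 and 393 in +N-L, with a change of 2.11 without nitrogen and 0.51 with it. ASN1, the synthetase, read 1468, 1879 and 1384 in +N+L and 9788, 27819 and 8458 in +N-L, with changes of -3.55 without nitrogen and -3.08 with it. NIA1 had a log2 change of 1.95 without nitrogen and 1.80 with it, and AMT1;2 of 3.13 without nitrogen and 3.44 with it. Of the sugar genes STP1 had a log2 change of -3.33 without nitrogen and -2.41 with it, and GPT2 of 4.60 without nitrogen and 3.84 with it. F3H had a log2 change of 3.72 without nitrogen and 3.09 with it, and GI of 4.53 without nitrogen and 3.72 with it. Light and dark arrays were separated for ASN1 in both nitrogen states.

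**Figure D4:**
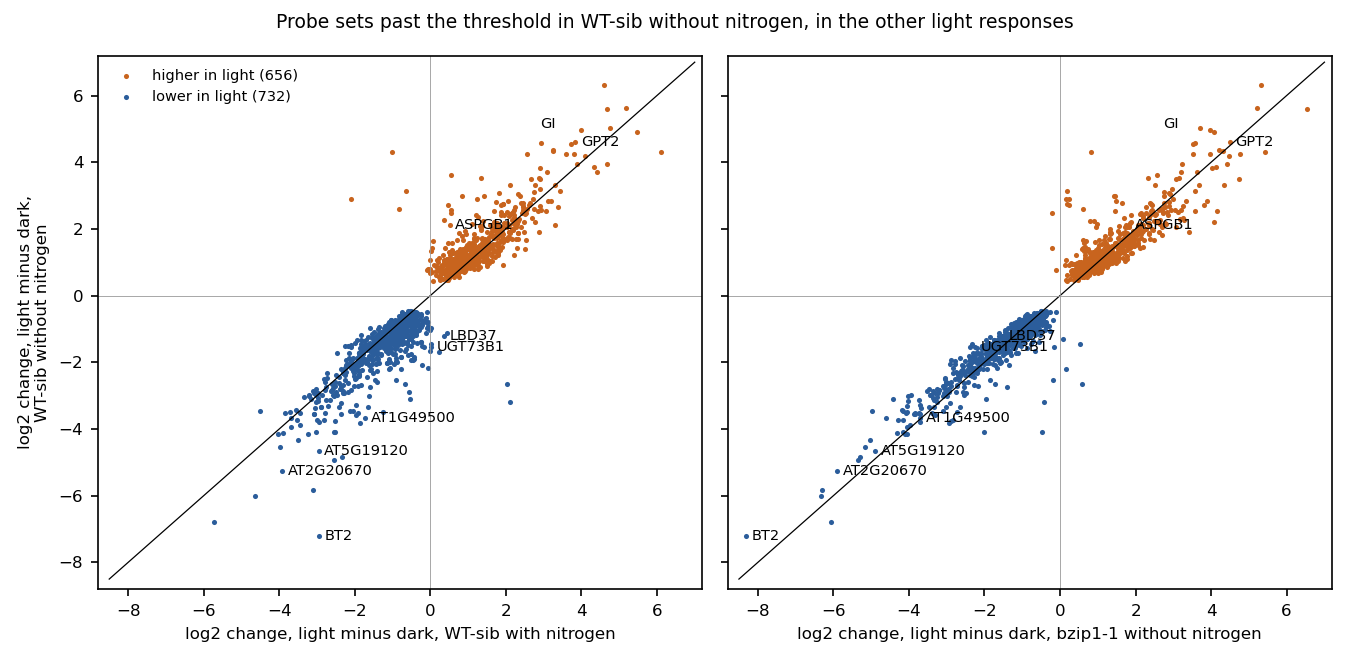
Log2 change, light minus dark, in WT-sib without nitrogen (vertical) against the change in WT-sib with nitrogen (left) and in bzip1-1 without nitrogen (right), for the 656 higher and 732 lower probe sets of WT-sib without nitrogen. The line marks equal changes, and the sign was the same for 647 and 724 of these probe sets with nitrogen and for 653 and 728 in bzip1-1.

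In bzip1-1 without nitrogen 913 probe sets were higher and 964 lower in light, 4.01% and 4.24% of those tested and 8.25% together, on 6 further arrays. Of the 656 probe sets that rose in WT-sib 502 rose there too, 76.5% of the WT-sib list and 55.0% of the bzip1-1 list. Of the 732 that fell 620 did, 84.7% and 64.3% of the lists. The median change of the WT-sib calls was 1.17 in WT-sib and 1.14 in bzip1-1 for those that rose, and -1.31 in WT-sib and -1.27 in bzip1-1 for those that fell. These probe sets were selected on the response in WT-sib, so the medians do not compare the genotypes on equal terms. The difference, WT-sib minus bzip1-1, passed for none of 22746 probe sets (limma, smallest adjusted p = 1.00), and 354 had an unadjusted p under 0.05, 1.56% of all. That share too lies below the 0.05 that no difference would give, so the lack of calls does not show equal responses in the genotypes. This comparison holds both -N+L arrays of replicate 1, which lay near the other genotype's level on AT3G56290. Without both arrays the difference passed for no probe set either. Whether the 2 arrays were exchanged was not tested.

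Among the named genes with the smallest p of this difference, NACA3, which belongs to a complex that binds nascent polypeptides, had a log2 change of -0.17 in WT-sib and 0.56 in bzip1-1, a difference of -0.73 (SE 0.19). It read 1343, 1823 and 1513 in WT-sib light and 1842, 1729 and 1674 in WT-sib darkness, which overlapped. THO1, a subunit of an mRNA export complex, rose in WT-sib by 0.76 (SE 0.20, adjusted p = 0.022) and had -0.09 in bzip1-1. THO1 did not pass without -N+L replicate 2 or 3 or -N-L replicate 1 or 3 (adjusted p up to 0.12). AT1G62150, annotated as mTERF-related, had 0.59 in WT-sib and -0.23 in bzip1-1. AT5G60730 and AT4G27050 had 0.54 and 0.41 in WT-sib, and -0.39 and -0.43 in bzip1-1. For all of these the adjusted p of the difference was 1.00. Transcripts that lead the WT-sib response also passed in the mutant. BT2 changed by -7.21 in WT-sib and -8.32 in bzip1-1, and ASN1 by -3.55 in WT-sib and -3.83 in bzip1-1. STP1 changed by -3.33 in WT-sib and -3.01 in bzip1-1. Of the transcripts that rose, F3H changed by 3.72 in WT-sib and 3.62 in bzip1-1, and GPT2 by 4.60 in WT-sib and 4.50 in bzip1-1.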

How the data were processed

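RNA from whole WT-sib and bzip1-1 seedlings was hybridised to ATH1 arrays, 3 for each of 8 groups. The authors deposited signal intensity values made with MAS 5.0, 1 per probe set, on a linear scale and normalized to the mean of the array without its lowest and highest 2%. From these intensities, log2 signals of all 24 arrays were fitted without an offset in limma 3.58.1 (R 4.3.3) as 8 group means, with eBayes and a trend on mean signal. All groups thus shared 1 estimate of the spread, as in the study's own model of nitrogen, light and genotype. Tests were two-sided, the Benjamini-Hochberg adjustment covered 22746 probe sets, and 64 AFFX controls were left out. The number of arrays limits the precision.

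Of the probe sets tested 13436 had 1 locus in the platform annotation and 874 more were named through the study's tables, from which no value was used. The platform annotation gave 503 probe sets several genes and 77 a gene without a locus, and 7856 had no name here. Named genes were the 12 highest and 12 lowest changes and the 6 smallest p in each direction among calls above the 40th percentile of signal, the 5 smallest p of each difference of responses, and all list members. Members and lists were chosen with earlier results of these data known, and further genes and all groups by gene name after values were seen.

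Alternatives were fits to 12 or 6 arrays, no trend, an offset of 32, scaling to a common median, quantile normalization, analysis of variance on linear or log2 signal, replicate number as a block, other thresholds, no dim probe sets, and leaving out each of the 6 arrays or both -N+L arrays of number 1. Promoter motifs and sequences were not used here. Python 3.11.15, pandas 2.3.3 and matplotlib 3.10.9 made the tables and figures, and the fit was checked on simulated data. No table of detection calls was used.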

Additional observations from a re-analysis of the deposited data

How the results depend on the processing

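The number of probe sets called in WT-sib light without nitrogen, 1388 (656 higher, 732 lower), moved most with what the spread was estimated from and with the threshold. With the 6 arrays alone 458 were called (196 higher, 262 lower), and with the 12 WT-sib arrays alone 409 were higher. At an adjusted p under 0.20 there were 3081 (1634 higher, 1447 lower), and at an unadjusted p under 0.01 there were 1059 higher. Leaving out 1 of the 6 arrays gave 803 to 1435 calls, 350 to 718 higher and 432 to 717 lower, with the fewest without -N+L replicate 2 or -N-L replicate 3. Those fits have fewer arrays in the comparison. The calls among members of the gene lists, 46, dropped to 29 with analysis of variance on linear signal, and the cause was not tested. No named gene that passed changed direction under any of these alternatives. Of 104 such genes followed through them 102 were also called with a common median and with quantile normalization, 85 without -N+L replicate 1 and 78 without -N-L replicate 3. The share of calls that were higher was 39.2% with a common median and 43.9% with quantile normalization, against 47.3% as deposited.

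With the replicate number as a block 2625 probe sets were called (1350 higher, 1275 lower), and all 104 genes were among them. The paper describes 3 independent experiments with both genotypes, but the labels do not say that a number marks a shared batch. Same-numbered light and dark arrays of the comparison deviated from their group means with r of 0.21, -0.07 and 0.42, and the numbers were not taken as pairs. Over all 24 arrays, however, same-numbered pairs had a median r of 0.245, with 65 of 84 over 0.1. Pairs of different numbers had a median of -0.0775, with 3 of 168 over 0.1, and 23 of 24 arrays lay closest in median to their own number. The arrays thus share variation by number, which the main fit left in its estimate of the spread. The difference of the light response between nitrogen states passed for no probe set, and for 1 with the block, SERAT2;1, at 1.78 (SE 0.22, adjusted p = 0.0022). Without both -N+L arrays of number 1 it passed for 1, AT1G05575, at 3.10 (SE 0.45, adjusted p = 0.037). At an unadjusted p under 0.01 there were 144 probe sets for this difference and 42 for the difference between genotypes. Neither difference passed with analysis of variance on log2 or linear signal.

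Probe sets with signals near 125 or below, and 3 arrays a group, limit the calls, above all for the differences of responses. Probe sets without a name, 445 of those called, and thin lists limit the account by gene group.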
